A study of Mus musculus with 30 samples.

Results

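Pla2g4e and Sult1a1 are 2 of the 49671 genes counted in the left ventricle of mice given amyloid beta 42 (Aβ42) or a scrambled form of the peptide (ScrAβ42). They were chosen by their p-values, the lowest by edgeR of the 11985 genes tested between those groups. Both were also counted in a second study of left ventricles, from mice given 3D6, an antibody that neutralises Aβ, or a control antibody, where they were 2 of 12146 genes tested. All mice were wild-type C57BL6J males. The peptide study had 7 Aβ42 and 7 ScrAβ42 hearts, from mice that received daily intraperitoneal injections for 4 weeks, starting at 12 weeks of age per the labels; the dose is 1 mg in the labels and 1 µg in the paper's methods. The antibody study had 8 hearts from 3D6 mice and 8 from control antibody mice, which were 12 weeks old when the study began. These mice received weekly injections of 0.75 mg/kg for 4 months. The series text describes the antibody mice as also given Aβ42, whereas the paper's methods describe them as fed a high-fat diet, so what both antibody groups shared beyond the antibody is uncertain here. Each heart is a separate mouse, and RNA came from whole ventricle tissue, in which fewer cells of a type and less RNA per cell cannot be told apart.

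Pla2g4e encodes cytosolic phospholipase A2 epsilon, a calcium-dependent enzyme that moves an acyl chain from phosphatidylcholine onto phosphatidylethanolamine. The product is the precursor of the N-acylethanolamines, lipids that include the endocannabinoid anandamide, and striated muscle is among the tissues where the gene is known to be expressed. Sult1a1 encodes the phenol sulfotransferase, which places a sulfate group from the donor PAPS on small phenols and is best known for the clearance of drugs and phenolic metabolites in the liver. No common pathway joins the enzymes in the lists used here, so each was read beside its own family and pathway.

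Pla2g4e (ENSMUSG00000050211) lies on the minus strand of chromosome 2 at 120166412 to 120245335, and Sult1a1 (ENSMUSG00000030711) on the minus strand of chromosome 7 at 126672865 to 126676432, in mouse build GRCm38. Sult1a1 shares 61 bases at its 3′ end with Sgf29 on the opposite strand. Sgf29 had 621 counts in all hearts of the peptide study together and 857 in those of the antibody study, and how the counting treated strand is not given in the sources used here. Gm13997, a gene model on the same strand at the 5′ end of Pla2g4e, had 1 count in all peptide hearts and 0 in all antibody hearts.

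The sequences ahead of the starts of both genes are shown because these genes share the direction of their difference with peptide, and they let a reader compare what precedes each start. They are the RefSeq promoters of GRCm38.p6, trimmed to the 236 bases that run from 250 to 15 bases ahead of the RefSeq start, 5′ to 3′ on the gene's strand, with matches to the motifs searched in capitals. The Pla2g4e stretch is chr2:120245350-120245585 and the Sult1a1 stretch is chr7:126676433-126676668, both on the minus strand.
Pla2g4e: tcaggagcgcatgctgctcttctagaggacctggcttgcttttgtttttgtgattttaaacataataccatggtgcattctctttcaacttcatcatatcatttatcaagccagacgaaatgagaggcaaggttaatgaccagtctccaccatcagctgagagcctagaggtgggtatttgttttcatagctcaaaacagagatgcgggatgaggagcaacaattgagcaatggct
Sult1a1: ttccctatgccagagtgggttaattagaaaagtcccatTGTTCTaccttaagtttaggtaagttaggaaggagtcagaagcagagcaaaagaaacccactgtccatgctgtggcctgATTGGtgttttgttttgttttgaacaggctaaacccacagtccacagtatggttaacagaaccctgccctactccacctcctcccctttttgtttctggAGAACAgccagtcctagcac
Both strands were searched for promoter elements and for sites of hormone and stress responsive factors. The promoter elements were the TATA box, spelled TATAAA, the CCAAT box, spelled by its name, and the GC box, spelled GGGCGG. The others were the E-box (CACGTG), the core of the cyclic AMP response element (TGACG), the binding site of the factor AP-1 (TGACTCA), the half-site of the glucocorticoid receptor (AGAACA), the half-site of other nuclear receptors (AGGTCA) and the site of the GATA factors (AGATAA). The Sult1a1 stretch held a reversed CCAAT box (ATTGG) 119 bases from its end and the glucocorticoid half-site at 198 bases (as TGTTCT) and 20 bases (as AGAACA) from its end. Of 32544 RefSeq promoter stretches of the same length, 32.7% held a CCAAT box, 15.3% held the half-site and 1.6% held it at 2 or more places. None of these letters occurred in the Pla2g4e stretch. The GC content was 43.2% for Pla2g4e, with 3 CpG dinucleotides, and 45.8% for Sult1a1, with 0. The stretches had no motif match in common, and a match to letters is not evidence that a factor binds.

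Each heart of the peptide study held between 4478991 and 6015767 counts, and each of the antibody study between 6397192 and 8310478. Values are CPM, counts scaled to a common library total after TMM normalization, which scales each library by a factor estimated from most of its genes. Markers of ventricular cardiomyocytes summed to at least 42550 CPM in every heart. Atrial markers (Sln, Myl7, Myl4, Bmp10 and Mybphl) were all detected and uneven: their sum ranged from 12.4 to 8417 CPM in Aβ42 hearts, with a median of 1158, and from 3.82 to 3665 CPM in ScrAβ42 hearts, with a median of 10.5. Adipocyte markers summed to 0.595 to 635 CPM in Aβ42 hearts and 0.194 to 84.4 CPM in ScrAβ42 hearts. All 5 tested genes of each of these lists had a higher mean with Aβ42, 1 atrial and 2 adipocyte genes with an unadjusted p under 0.05 by edgeR, as had 3.59% of all genes in that direction. All 5 mesothelial markers were also higher on average (median log2 fold change 0.89, sums of 23.4 to 171 against 22.7 to 78.0 CPM). All 5 blood markers were lower on average (median -1.37, sums of 556 to 5073 against 802 to 15940 CPM). So were 6 of 7 tested skeletal muscle markers (median -0.53, sums of 686 to 2178 against 1356 to 1813 CPM). Of the mesothelial, blood and skeletal muscle lists, 0 genes had an unadjusted p under 0.05 by edgeR. In the antibody study only 2 of the 8 skeletal muscle genes passed the filter, yet they summed to 1275 to 2314 CPM with 3D6. The sums of this list are therefore not read as skeletal muscle content.

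Pla2g4e was higher in the hearts of mice given Aβ42. Its level was 13.0 CPM in the lowest Aβ42 heart, 15.0 CPM at the median and 15.6 CPM in the highest. In ScrAβ42 hearts it was 8.84 CPM in the lowest, 9.29 CPM at the median and 12.1 CPM in the highest. Every Aβ42 heart was therefore above every ScrAβ42 heart, with a gap of 0.934 CPM between the lowest of the first and the highest of the second. The group means were 14.5 ± 0.957 and 9.86 ± 1.19 CPM (SD, n = 7 each), a log2 fold change of 0.55 ± 0.09 (SE), or 1.47-fold. These rest on 65 to 110 counts per Aβ42 heart and 38 to 72 per ScrAβ42 heart.

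Sult1a1 was also higher with Aβ42. Its level was 68.0 CPM in the lowest Aβ42 heart, 70.2 CPM at the median and 83.7 CPM in the highest. In ScrAβ42 hearts it was 46.5 CPM in the lowest, 57.8 CPM at the median and 58.9 CPM in the highest. The groups again did not overlap, and the gap between them was 9.14 CPM. The group means were 73.8 ± 6.21 and 54.5 ± 4.90 CPM (SD, n = 7 each), a log2 fold change of 0.44 ± 0.07 (SE), or 1.35-fold, from 352 to 592 counts per Aβ42 heart and 238 to 348 per ScrAβ42 heart. The plot of both genes in each heart shows the separation beside the antibody groups.

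**Figure D1:**
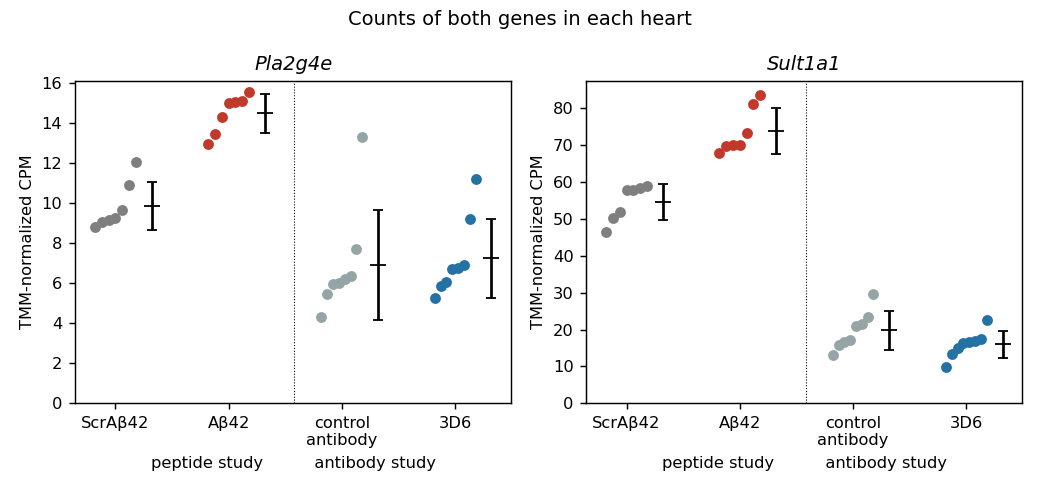
TMM-normalized CPM of Pla2g4e (left) and Sult1a1 (right) on the vertical axes, with 1 point per heart and bars for the mean ± SD beside each group (7, 7, 8 and 8 hearts). All Aβ42 hearts lie above all ScrAβ42 hearts for both genes, which a low p chose. The 3D6 and control antibody hearts overlap, as they do for every gene tested in that study. The dotted line parts the studies, whose tables were made and normalized separately.

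Because these differences chose the genes, they are a description and carry no test of their own. In that comparison Pla2g4e ranked 1 and Sult1a1 ranked 2 by p in edgeR's quasi-likelihood test, and both had an adjusted p of 0.0910. The ranks were 7 and 1 with DESeq2, and 5 and 10 by edgeR with CPM of the total count. The next genes, just outside the choice, were Jun, an immediate early transcription factor, with a log2 fold change of -0.48 and an adjusted p of 0.119 by edgeR, and Abra, an actin-binding protein of striated muscle, with -0.65 and an adjusted p of 0.131 by edgeR. By edgeR 0 genes (0.0%) had an adjusted p under 0.05, while 780 (6.51%) had an unadjusted p under 0.05, and DESeq2 gave 12 genes an adjusted p under 0.05, both genes among them. Groups that did not overlap were seen for 7 genes (0.0584%) that were higher with Aβ42 and 4 genes (0.0334%) that were lower; nothing is read from this for Pla2g4e and Sult1a1, since a low p chose them.

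The heart-to-heart spread of Pla2g4e was small with peptide. The variance of its level across Aβ42 hearts was 0.332 of what counting error alone gives at its depth, and across ScrAβ42 hearts 0.791. Only 2.04% of the 4268 genes with a mean count within 2-fold of its own had so low a ratio in the Aβ42 group, where their median was 2.03. For Sult1a1 the ratio was 2.97 in Aβ42 hearts and 2.31 in ScrAβ42 hearts, below the medians of 4.34 and 3.28 for genes of like count. A low p rests on the spread as well as on the difference, so these ratios were touched by the choice of the genes too. In the antibody study, which played no part in the choice, the ratios were higher: 3.82 and 7.47 for Pla2g4e with 3D6 and control antibody, and 5.80 and 9.66 for Sult1a1. They lay above the medians of genes of like count, 1.84 and 2.51 for Pla2g4e and 2.56 and 3.74 for Sult1a1.

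The 5 Aβ42 hearts with an atrial marker score of 3 or more (the mean log2 CPM of the atrial list) had Pla2g4e between 13.0 and 15.1 CPM, and the 2 with a lower score had 13.5 and 15.6 CPM. The 6 ScrAβ42 hearts with a lower score lay between 8.84 and 10.9 CPM, and the 1 with a high score, which was also the highest of its group, at 12.1 CPM. For Sult1a1, the 2 low-score Aβ42 hearts had 73.2 and 83.7 CPM and the 6 low-score ScrAβ42 hearts 46.5 to 58.9 CPM. Low-score hearts alone, 2 against 6, gave log2 fold changes of 0.61 for Pla2g4e and 0.54 for Sult1a1, each with an adjusted p of 1.00 by edgeR; the direction was fixed beforehand, since the whole groups do not overlap. The cut on the score was added once values were known. The part of atrial tissue, adipocytes, mesothelium, blood or skeletal muscle in these values was not tested.

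With 3D6, the level of Pla2g4e did not differ detectably from that with control antibody. It was 5.25 CPM in the lowest 3D6 heart, 6.76 CPM at the median and 11.2 CPM in the highest, mouse 7. In control antibody hearts it was 4.32 CPM in the lowest, 6.12 CPM at the median and 13.3 CPM in the highest, mouse 22. All 8 of the 3D6 hearts lay within the range of the control hearts, and 5 were above the control median. The means were 7.26 ± 1.98 and 6.92 ± 2.74 CPM (SD, n = 8 each), and the log2 fold change was 0.07 ± 0.20 (SE), with an adjusted p of 0.964 by edgeR. The exact two-sided permutation test of log2 CPM gave p = 0.638. The 95% interval of the difference, -0.37 to 0.50 on the log2 scale or 0.773-fold to 1.42-fold, leaves room for changes in either direction.

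Sult1a1 was lower on average with 3D6, but not beyond the spread between hearts. Its level was 9.79 CPM in the lowest 3D6 heart, mouse 7, 16.5 CPM at the median and 22.6 CPM in the highest. In control antibody hearts it was 13.2 CPM in the lowest, 19.1 CPM at the median and 29.6 CPM in the highest, mouse 22. The groups overlapped, as they did for all 12146 genes tested in this study. For Sult1a1, 7 of 8 of the 3D6 hearts lay below the control median and 2 control hearts above every 3D6 heart. The means were 15.99 ± 3.67 and 19.8 ± 5.24 CPM (SD, n = 8 each), and the log2 fold change was -0.31 ± 0.16 (SE), with an adjusted p of 0.944 by edgeR. The exact two-sided permutation test gave p = 0.123. The 95% interval ran from -0.66 to 0.04 on the log2 scale, or 0.634-fold to 1.03-fold. In this comparison edgeR gave 0 of 12146 genes (0.0%) an adjusted p under 0.05 and 444 (3.66%) an unadjusted p under 0.05, and neither gene was among the latter.

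Mouse 22 was the highest control heart for both genes. It also had the highest endothelial marker score of the antibody study, 7.56 (mean log2 CPM of 7 genes), and the lowest share of mitochondrial counts, 26.0%. Without it the log2 fold change with 3D6 was 0.27 for Pla2g4e and -0.19 for Sult1a1, both with an adjusted p of 0.999 by edgeR. The 7 endothelial markers summed to 1064 to 1207 CPM in 3D6 hearts and 1045 to 1914 CPM in control hearts. All 7 were lower with 3D6, and none was at 0 in every heart. Of these, 2 had an unadjusted p under 0.05 by edgeR, as had 2.36% of all genes in that direction. When the fit held the endothelial score, the difference with 3D6 was 0.43 for Pla2g4e and -0.11 for Sult1a1 on the log2 scale, both with an adjusted p of 1.00 by edgeR. The unadjusted p of Pla2g4e was then under 0.05, and 321 of 12146 genes were under this threshold in that fit. When the fit held the mitochondrial share instead, the values were 0.22 and -0.17, and with the atrial score 0.09 and -0.25. An atrial score of 3 or more was found in 4 of the 3D6 hearts and 2 of the control hearts. The hearts with a lower score alone gave 0.01 for Pla2g4e and -0.23 for Sult1a1. The part of endothelial cells or atrial tissue in these values was not tested.

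**Figure D2:**
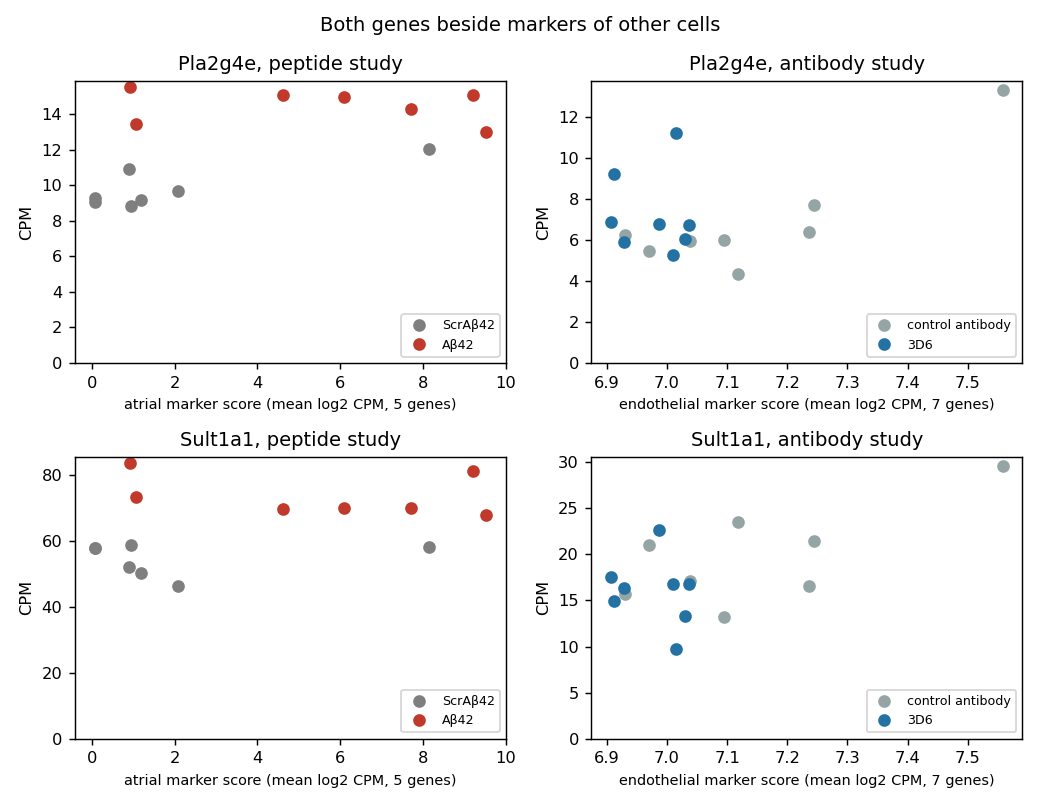
CPM of Pla2g4e (top) and Sult1a1 (bottom) on the vertical axes against the atrial marker score in the peptide study (left) and the endothelial marker score in the antibody study (right), with 1 point per heart, coloured by group. Of the Aβ42 hearts 5 have an atrial score of 3 or more and of the ScrAβ42 hearts 1; control antibody mouse 22 stands alone at an endothelial score of 7.56, with 13.3 CPM of Pla2g4e and 29.6 CPM of Sult1a1.

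The peptide values under other settings are a description too, since groups that do not overlap keep their direction when hearts are left out. The log2 fold change of Pla2g4e ranged from 0.51 to 0.61 over 14 other settings and from 0.53 to 0.61 when 1 heart was left out in turn. That of Sult1a1 ranged from 0.42 to 0.54 and from 0.40 to 0.46. The adjusted p moved far more than the log2 values. By edgeR it was 0.0238 for Pla2g4e and 0.0295 for Sult1a1 with the endothelial score in the fit, 0.0267 for both with the fibroblast score, 0.271 for both with the atrial score and 0.426 for both with CPM of the total count, and with DESeq2 it was 0.00885 and 0.000156. Without 1 heart it ranged from 0.0361 to 0.267 for Pla2g4e and from 0.0801 to 0.267 for Sult1a1. With 3D6, Pla2g4e lay between 0.01 and 0.43 over 15 settings and between -0.05 and 0.27 without 1 heart, so that its direction turned. It turned without control antibody mouse 19, at -0.01, and without 3D6 mouse 7, at -0.05. Sult1a1 stayed lower with 3D6 throughout, between -0.37 and -0.11 and, without 1 heart, between -0.39 and -0.19. Its unadjusted p was under 0.05 in 3 of these 15 settings and in 2 of the 16 that left out a heart, and no adjusted p of it was under 0.694, nor one of Pla2g4e under 0.905, by edgeR or the other tools.

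**Figure D3:**
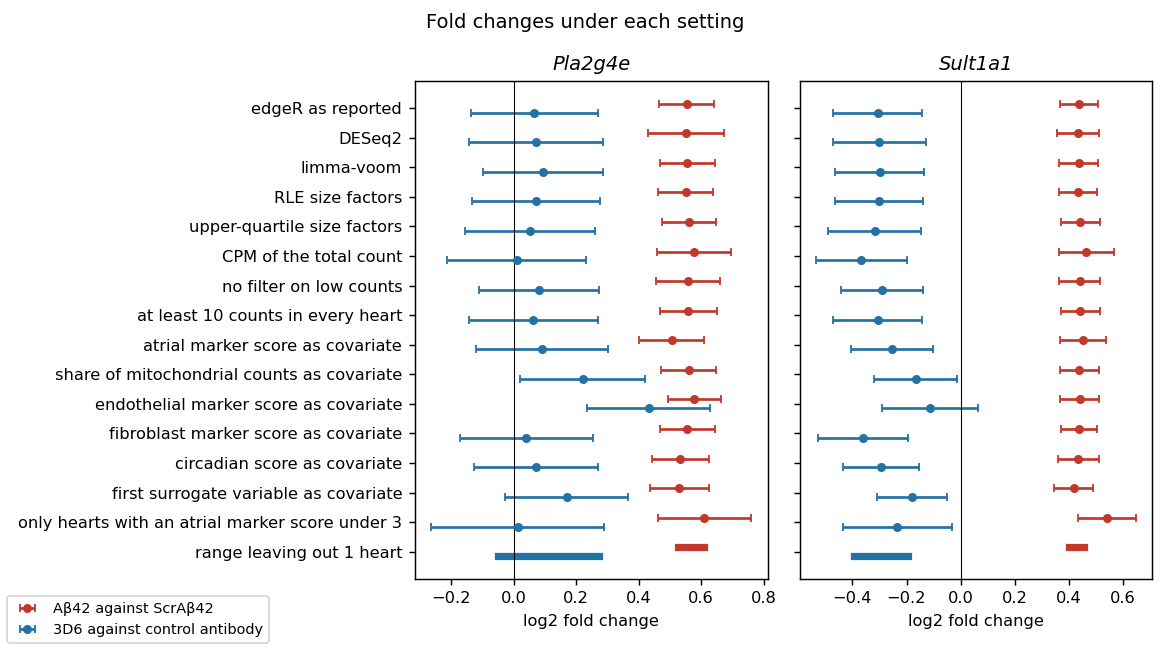
Log2 fold change (horizontal axis) of Pla2g4e (left) and Sult1a1 (right) under each setting (rows), with points for the estimate and bars for its SE, for Aβ42 against ScrAβ42 in red and 3D6 against control antibody in blue. The thick bars in the lowest row span the values with 1 heart left out; the red points stay above 0.4, and the blue points of Pla2g4e run from 0.01 to 0.43.

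The antibody table gives estimated counts per transcript, which allows the annotated forms to be told apart there. Pla2g4e-201, the coding transcript with 20 exons and 4477 bases, held 77.5% of the gene's counts. It ranged from 2.65 to 9.80 CPM in 3D6 hearts, with a median of 5.33, and from 4.33 to 7.04 CPM in control hearts, with a median of 5.39. The groups overlapped, and the log2 fold change was 0.07 ± 0.23 (SE), with an adjusted p of 1.00 by edgeR over 20857 transcripts, of which 0 (0.0%) had an adjusted p under 0.05 and 500 (2.40%) an unadjusted p under 0.05. Pla2g4e-203, a form annotated as keeping an intron, held 18.7% of the counts and was too low on average to be tested. It was at 0 in 4 of 8 control hearts and 1 of 8 of the 3D6 hearts, had medians of 0.363 and 1.55 CPM, and reached 6.26 CPM in control mouse 22. In that heart it made up 47.1% of the gene's counts.

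Of Sult1a1, the coding transcript Sult1a1-202 (8 exons, 1289 bases) held 86.8% of the counts and Sult1a1-201 (7 exons, 1370 bases) 11.6%. Sult1a1-202 ranged from 9.68 to 19.3 CPM in 3D6 hearts and from 11.4 to 26.8 CPM in control hearts, with medians of 13.3 and 16.5. Its log2 fold change was -0.33 ± 0.18 (SE; adjusted p = 1.00 by edgeR). Sult1a1-201 ranged from 0.294 to 3.57 CPM with 3D6 and from 0.908 to 4.24 CPM with control antibody, with a log2 fold change of -0.32 ± 0.44 (SE; adjusted p = 1.00 by edgeR). Both forms thus had lower means with 3D6, with differences that stayed within the heart-to-heart spread.

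Levels of different genes were compared per kilobase of exon. Pla2g4e stood at 2.08 ± 0.137 CPM per kb with Aβ42 and 1.42 ± 0.171 with ScrAβ42 (SD, n = 7 each), and at 1.04 ± 0.285 with 3D6 and 0.994 ± 0.394 with control antibody (SD, n = 8 each). Averaged over hearts it lay above 23.7% of the genes tested with peptide and 19.1% of those tested with antibody. Sult1a1 stood at 49.0 ± 4.12 and 36.2 ± 3.25 CPM per kb in the peptide groups and at 10.6 ± 2.44 and 13.1 ± 3.48 in the antibody groups, above 93.9% and 83.2% of the tested genes. Levels were thus lower in the antibody study for both genes. The studies differ in table, mice, treatment and its length (4 weeks against 4 months), and so in the age of the mice. These cannot be told apart, and the levels of the studies were not tested against each other.

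Pla2g4e was the most abundant of the Pla2g4 genes, the family of cytosolic phospholipases A2, in both studies. Its level per kb exceeded that of Pla2g4a, the enzyme that releases arachidonic acid, in 13 of 14 peptide hearts and 16 of 16 antibody hearts. It exceeded that of Pla2g4b in 14 of 14 and 15 of 16. Pla2g4a ranged from 0.152 to 2.34 CPM per kb over the peptide hearts and Pla2g4b from 0.243 to 0.762, so these neighbours in the order overlapped. Pla2g4c, Pla2g4d and Pla2g4f stayed at or below 0.112 CPM per kb in every heart and were not tested. Pla2g4a had a log2 fold change of 0.82 ± 0.48 (SE) with Aβ42 and 0.16 ± 0.38 with 3D6. Pla2g4b had 0.32 ± 0.26 and -0.34 ± 0.32 (SE), and the adjusted p of both genes was at least 0.803 by edgeR.

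Sult1a1 was the main cytosolic sulfotransferase of these hearts. Of the 15 Sult genes listed, 2 passed the filter on low counts in the peptide study and 1, Sult1a1 itself, in the antibody study, while 7 and 6 had 0 counts in every heart. The second, Sult5a1, a family member of little-known function, ranged from 0.0989 to 1.65 CPM per kb over the peptide hearts, far below Sult1a1. Sult5a1 had 2.84 ± 2.19 CPM with Aβ42 and 1.43 ± 0.823 CPM with ScrAβ42 (SD, n = 7 each), a log2 fold change of 0.99 ± 0.46 (SE), with an unadjusted p under 0.05 and an adjusted p of 0.761 by edgeR.

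The N-acylethanolamine and endocannabinoid list holds genes whose products make, carry, sense or degrade N-acylethanolamines. It also holds genes of other endocannabinoids and of the enzymes that oxygenate arachidonic acid. Not all of its genes therefore follow from the Pla2g4e product, and its counts are not read as such. In the peptide study 18 of its 26 genes were tested; 13 were higher and 5 lower with Aβ42, 4 higher and 0 lower at an unadjusted p under 0.05 against 3.59% and 2.92% of all genes, and 0 passed adjustment. The median was 0.12, beside 0.00 for all genes. Abhd4, which cleaves acyl chains from the N-acyl phosphatidylethanolamine that Pla2g4e makes, had 65.9 ± 8.76 and 55.8 ± 2.72 CPM (SD, n = 7 each), a log2 fold change of 0.24 ± 0.08 (SE; adjusted p = 0.656 by edgeR). Fabp5, a carrier of fatty acids and their amides, had a log2 fold change of 0.37 ± 0.14 (SE; adjusted p = 0.702 by edgeR). With 3D6, 17 genes of the list were tested; 9 were higher and 8 lower, 2 and 1 at an unadjusted p under 0.05 against 1.29% and 2.36% of all genes, 0 passed adjustment, and the median was 0.01 beside -0.01. The smallest p-values there were those of Gdpd1, a lysophospholipase D that forms N-acylethanolamines (-0.31), and Alox5, the arachidonate lipoxygenase (0.41), each with an adjusted p of 0.944 by edgeR.

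In the edgeR fits of all hearts without covariates, the other phospholipase A2 genes had no adjusted p under 0.05 in either study. Neither did Pla2g4e. In the peptide study 15 of 24 were tested, 9 higher and 6 lower, with a median of 0.03; 0 had an unadjusted p under 0.05. The lowest ranks by p were those of Hrasls, a phospholipase and acyltransferase (-0.35), and Pafah2, which inactivates platelet-activating factor (-0.16). With 3D6, 14 were tested, 9 higher and 5 lower, with a median of 0.04. Pla2g5, a secreted phospholipase A2, was the only one at an unadjusted p under 0.05 (0.41, adjusted p = 0.944 by edgeR), and Pnpla2, the adipose triglyceride lipase, followed (0.13).

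Genes that supply or undo the reaction of Sult1a1 gave no adjusted p under 0.05 in the same edgeR fits, and neither did Sult1a1 itself. Of 13 genes for sulfate supply, PAPS synthesis and desulfation, 11 were tested in the peptide study, 6 higher and 5 lower, with a median of 0.11, and 0 had an unadjusted p under 0.05. Papss1 and Papss2, which make the sulfate donor PAPS, had log2 fold changes of 0.18 and 0.24. With 3D6, 10 were tested, 5 in each direction, with a median of -0.01 and 0 at an unadjusted p under 0.05; Papss1 had -0.19 and Arsa, the lysosomal arylsulfatase A, -0.17. Of 12 genes that inactivate catecholamines or thyroid hormones, substrates also open to sulfation, 7 were tested with peptide, 6 higher and 1 lower, and 6 with antibody, 3 in each direction, with medians of 0.11 and 0.03 and 0 at an unadjusted p under 0.05 in both. Dio2, the activating deiodinase, had the largest value, 2.06 ± 1.02 (SE; adjusted p = 0.763 by edgeR), from 8.52 ± 16.2 against 2.05 ± 2.07 CPM (SD, n = 7 each). Maoa, a monoamine oxidase, had 0.50 with peptide, and Maob, the other monoamine oxidase, had 0.31 with antibody.

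**Figure D4:**
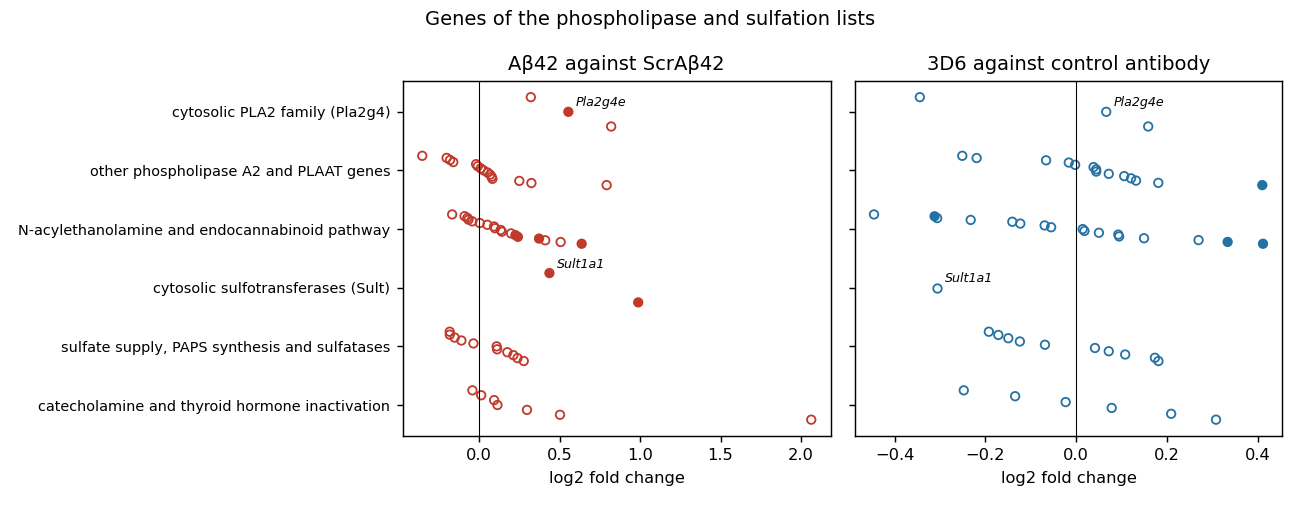
Log2 fold change (horizontal axes) of every tested gene of 6 lists (rows), for Aβ42 against ScrAβ42 (left) and 3D6 against control antibody (right); filled points had an unadjusted p under 0.05 by edgeR. With Aβ42, Pla2g4e at 0.55 and Sult1a1 at 0.44 lie right of 0, and with 3D6 they lie at 0.07 and -0.31; the horizontal scales of the panels differ.

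The genes beside Pla2g4e and Sult1a1 had smaller differences with peptide. Ehd4, an endocytic recycling protein 11806 bases away from Pla2g4e, had a log2 fold change of 0.11 ± 0.08 (SE), and Vps39, a subunit of a vesicle tethering complex 71126 bases away, 0.09 ± 0.06 (SE). Sgf29, a subunit of histone acetylating complexes that overlaps Sult1a1, had 0.06 ± 0.17 (SE), and Slx1b, a structure-specific nuclease 13036 bases away, 0.23 ± 0.20 (SE), each with an adjusted p of at least 0.839 by edgeR. With 3D6 the 4 neighbours had log2 fold changes of 0.01, 0.08, -0.19 and -0.08 in the same order. Sgf29 itself stood at 8.53 CPM with Aβ42 and 8.19 CPM with ScrAβ42, well below Sult1a1.

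Within groups, Pla2g4e and Sult1a1 varied largely apart. After group means were removed, Pearson's r of their log2 CPM was 0.20 over the 14 peptide hearts and 0.03 over the 16 antibody hearts; in the peptide hearts 27.1% of genes had a higher r with Pla2g4e than Sult1a1 had. The same Aβ42 heart was the lowest for both, and another the highest for both, whereas mouse 7 was the highest 3D6 heart for Pla2g4e and the lowest for Sult1a1. Pla2g4e had r = -0.59 with the endothelial score in peptide hearts and 0.61 in antibody hearts, opposite in sign. Sult1a1 had r = 0.66 with the first surrogate variable and 0.54 with a score of circadian genes in antibody hearts, and 0.25 and -0.01 in peptide hearts. Of the antibody hearts, control mouse 22 had the highest level of both genes, the highest endothelial score and the highest first surrogate variable. How far the r values of that study rest on this 1 heart was not tested. These r values are descriptions over 14 and 16 hearts and were not tested. In the peptide groups the spread of Pla2g4e did not exceed counting error, so its r values there cannot be told from counting error.

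Over 11360 other genes, those whose variation within groups was most like Pla2g4e in both studies were Tesmin (r = 0.69 over 14 peptide hearts and 0.73 over 16 antibody hearts), Zfp446 (0.67 and 0.61), Khnyn (0.67 and 0.59), Cdk6 (0.58 and 0.70) and Isg15 (0.59 and 0.58). For Sult1a1 they were Zfp263 (0.78 and 0.71), Nckipsd (0.69 and 0.72), Gstm1 (0.68 and 0.67), Plcd1 (0.77 and 0.65) and Rps24 (0.69 and 0.65). Gstm1 encodes a glutathione transferase. The list was ranked by the smaller of both r values and is a choice among many genes, so it is given as a description. For Pla2g4e the variance within peptide groups was 0.332 (Aβ42) and 0.791 (ScrAβ42) of counting error. What its r values describe in those hearts thus cannot be told from counting error. Of these 10 genes, Tesmin, Gstm1 and Rps24 were higher with Aβ42 at an unadjusted p under 0.05 by edgeR, as were 3.59% of all genes tested. Their log2 fold changes were 0.81, 0.19 and 0.17, and the other 7 lay between -0.76 (Isg15) and 0.18 (Zfp446). With 3D6 no gene of the 10 had an unadjusted p under 0.05, beside 3.66% of all genes tested there. The values lay between -0.44 (Isg15) and 0.11 (Cdk6).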

How the data were processed

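RNA of left ventricles from 30 mice was sequenced from stranded total RNA libraries. The authors trimmed the reads, mapped them with Salmon to the GENCODE mouse transcriptome (GRCm38) and deposited whole-number counts per gene for the peptide study. The antibody table, as deposited by the authors, holds estimated counts that Salmon gave for every transcript; neither table was normalized. Groups came from the labels; 1 count column of the peptide table matched no labelled mouse and was not used.

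Each gene's antibody transcripts, as listed by GENCODE vM21, another release than the study's, were added up and rounded. It listed 99.48% of the peptide genes and 99.21% of the antibody transcripts; the 0.381% of counts on unlisted transcripts were left out. The studies were fitted separately, on genes whose counts averaged 10 or more per heart, in R 4.3.3 with edgeR 4.0.16. The fit used TMM normalization, a two-sided quasi-likelihood test and Benjamini-Hochberg adjustment over all genes tested. The log2 CPM of each gene in single hearts, used for the permutation test and for r, had a prior count of 2. The 95% intervals are the estimate and its SE with 14 degrees of freedom. A single value was tested by exact permutation (scipy 1.17.1). DESeq2 1.42.0, limma-voom (limma 3.58.1), other scalings and filters, covariates including a surrogate variable (sva 3.50.0), and leaving out each heart were alternatives. The tests were tested on simulated data; in the transcript simulation few changed transcripts were recovered, so a transcript that misses the threshold says little. Replicate hearts differed by more than counting noise (chi-square per degree of freedom at least 3.29). Intervals cover the spread between these hearts only.

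Both genes, the gene lists and the settings were chosen with earlier results of these data known. Named genes were Pla2g4e and Sult1a1; tested genes of their families; the 2 genes with the smallest p in each other list and study; transcripts with at least 5% of the gene's counts; the 5 genes most alike within groups; and the nearest tested neighbours. Jun and Abra are named as the genes next in rank. One gene that this rule names is not reported here. RefSeq promoters (GRCm38.p6) matched both genes; stretches begin 250 bases ahead of the RefSeq start. Coordinates are 1-based.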

Additional observations from a re-analysis of the deposited data

Results flagged for a closer look

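Among the 8 control antibody hearts, mouse 22 had 13.3 CPM of Pla2g4e, against 4.32 to 7.70 CPM in the other 7, and its gap to the nearest heart was 0.624 of the group's range, above Dixon's critical value for 8 samples. The same heart had 6.262 CPM of the intron-keeping transcript Pla2g4e-203, with a gap of 0.736 of the range. The values are not independent, since the transcript is part of the gene's count. In all, 16 groups of values were tested this way and 2 stood out; chance gives about 1 in 20. Mouse 22 also had the lowest share of mitochondrial counts and the highest endothelial score of the antibody study, and whether these bear on its Pla2g4e level was not tested.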

How the results depend on the processing

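No paired analysis was possible because the mouse numbers of the groups compared have none in common. Of the values recomputed under the alternatives, 276 stayed the same, 16 counts moved and 4 values reversed, and the cause was not tested. For the peptide fold changes, same meant a kept direction and a shift below the SD of log2 CPM between hearts, whatever the adjusted p. That adjusted p did cross 0.05 in some settings, as with DESeq2 (0.00885 for Pla2g4e and 0.000156 for Sult1a1). For the antibody fold changes, same meant a kept direction and side of the 0.05 threshold, and for counts a size within 1.5 times. The log2 fold change of Pla2g4e with 3D6 reversed to -0.0065 without control antibody mouse 19 and to -0.0493 without 3D6 mouse 7, within a range of -0.0493 to 0.272 when 1 heart was left out. That of Pla2g4e-201 reversed to -0.0118 with limma-voom and to -0.0826 without 3D6 mouse 7 (range -0.0826 to 0.185). Genes with an adjusted p under 0.05 in the peptide comparison numbered 0, but 12 with DESeq2, 28 with the endothelial score and 44 with the fibroblast score as covariate, and 0 to 3 without 1 heart (3 without the Aβ42 heart second lowest in Pla2g4e, 1 without the ScrAβ42 heart highest in Pla2g4e). Those with an unadjusted p under 0.05 numbered 780, but 1475 with no filter on low counts, 1252 with the share of mitochondrial counts, 1338 with the endothelial score and 1536 with the fibroblast score as covariate, 505 in low atrial score hearts, and 609 to 1266 without 1 heart (1266 without that same ScrAβ42 heart). In the antibody comparison this count was 444, but 1168 with no filter, 785 with the circadian score, 278 in low atrial score hearts, and 256 (without 3D6 mouse 4) to 765 (without control mouse 8) without 1 heart. Its split of 157 higher and 287 lower became 86 and 441 with CPM of the total count, and in the peptide comparison 430 and 350 became 309 and 592 with the atrial score as covariate. Pla2g4e rests on 27 to 110 counts per heart, which limits the differences that can be seen for it, and Pla2g4e-203 could not be tested at this depth.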
